A study of Mus musculus with 232 samples.

Results

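RGL_young is the cluster of perinatal radial glia-like cells in a single-cell RNA survey of the developing mouse dentate gyrus. Its members were the cells whose deposited cluster label read exactly RGL_young, at any age, and no level of any gene was used here to choose them. They numbered 686 of 24185 cells, and 673 of them (98.1%) came from the embryonic age E16.5 (107 cells), the day of birth (P0, 325 cells) and postnatal day 5 (P5, 241 cells). The other 13 cells came from P18 (5 cells), P23 (7 cells) and P132 (1 cell), and there were none at P19 or P120. The study microdissected the dentate gyrus from vibratome slices, dissociated it with papain and captured cells in droplets (10X Chromium), giving unique molecular identifier (UMI) counts in 24 clusters and 11 libraries.

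Mice at E16.5, P0 and P5 were CD-1 animals of unknown sex, and those at P18 and P23 were male CD-1 animals. C57Bl/6 females were used at P19. The P120 and P132 pools held hGFAP-GFP mice of both sexes, whose green reporter is under control of a human GFAP promoter, and GFP-positive cells were sorted from such mice. That sort can set the shares seen at these ages. E16.5 is 1 library, and P0 and P5 are 2 libraries each, called P0a, P0b, P5a and P5b here after the prefixes of the cell names. The letters name libraries and pair nothing.

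Radial glia are the neural stem cells of the embryonic brain: they line the ventricle, send a long fibre towards the surface, and give rise to neurons and later to astrocytes. In the dentate gyrus a part of this population moves away from the ventricle, settles below the granule cell layer and becomes the radial glia-like cell that makes granule neurons throughout life. The perinatal days are the time at which granule neurons are made in the largest numbers and the germinal niche is assembled.

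Depth and composition differed between the ages in ways that touch the results below. RGL_young cells had a median of 5361 UMIs at E16.5, 3735 at P0 and 3771 at P5, and they ranked 8 of 11, 10 of 11 and 14 of 15 clusters by that measure. Their summed counts were 701151, 1316837 and 1006028 UMIs. Ribosomal protein genes took 21.1% of the UMIs at E16.5, 16.6% at P0 and 15.8% at P5. Early response genes, which dissociation is known to induce, summed to 1994 CPM (UMIs per 1000000 UMIs of the cells summed) at E16.5 and to between 5747 and 7579.6 CPM in the 4 later libraries. Their part in the changes with age was not tested. Xist, the RNA expressed from the inactive X chromosome of females, stood at 1311 CPM at E16.5, 673 in P0a, 437 in P0b and 0 in both P5 libraries, so the sex of the pools differed between ages and cannot be told apart from age. Over the 5 perinatal libraries, marker sums of microglia lay at 0 to 17.0 CPM, of endothelial cells at 13.3 to 64.2 CPM, of vascular leptomeningeal cells at 11.3 to 49.9 CPM, of ependymal cells at 13.2 to 70.1 CPM and of Cajal-Retzius neurons at 1.89 to 46.1 CPM. Other marker sums were higher at the later ages. Those of oligodendrocyte precursors stood at 38.5 CPM at E16.5, 178 and 249.6 CPM at P0 and 445 and 214 CPM at P5. Neuronal markers stood at 64.2, 155, 162, 233 and 442 CPM in the same order, and oligodendrocyte markers at 31.4, 77.7, 63.3, 117 and 88.8 CPM. Their part in the changes with age was not tested either. Haemoglobin and other blood genes reached 3632 CPM in P5a against 108 CPM in P5b. A total of 28 RGL_young cells carried a barcode that was also found in another library, 4 of them in the other library of the same age.

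RGL_young made up 4.68% of cells at E16.5 (107 of 2285, 95% exact Clopper-Pearson interval 3.85 to 5.63%), 6.80% at P0 (325 of 4779, 6.10 to 7.55%) and 5.43% at P5 (241 of 4435, 4.79 to 6.14%). The share was 5.77% in P0a and 7.85% in P0b, and it was 5.10% in P5a and 5.77% in P5b. The libraries of P0 thus differed by more than the means of P0 and P5, and P0a equalled P5b. At P18 the share was 0.184% (0.0599 to 0.430%) and at P23 it was 0.259% (0.104 to 0.533%). None of 2081 cells at P19 and none of 1363 at P120 belonged to the cluster, which allows shares of up to 0.144% and 0.220%. All intervals in this text cover counting error only.

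**Figure D1:**
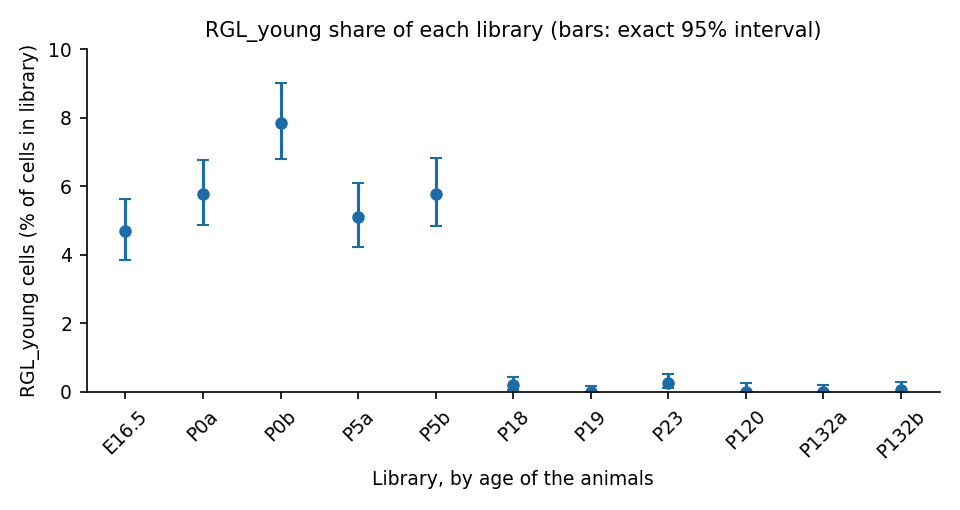
Share of RGL_young among all cells of each library (y axis, percent, with exact 95% binomial intervals) for the 11 libraries ordered by age (x axis). The 5 perinatal libraries lie between 4.68% and 7.85%, and no later library passes 0.259%.

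The 4 markers given for the cluster were Hopx, a homeodomain protein without DNA binding that marks quiescent stem cells, Tfap2c, the AP-2γ transcription factor of cortical progenitors, Wnt8b, a Wnt ligand of the hippocampal primordium, and Vim, the intermediate filament vimentin of radial fibres. All were detected at each perinatal age. Because the clusters were built from these same cells, levels against other clusters are a description and carry no test. RefSeq holds promoter windows for Hopx, Vim and Wnt8b on build GRCm38.p6, which has the coordinates of mm10. The 250 bases before each start are printed, since AP-2γ is itself a marker here and its family's motif, GCCNNNGGC (read the same on both strands, shown in capitals), can be looked up in the other 3 genes. Hopx has 2 starts on chromosome 5, at chr5:77115124-77115373 and chr5:77095268-77095517 (minus strand), Vim lies at chr2:13574061-13574310 and Wnt8b at chr19:44493222-44493471 (both plus strand).

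Hopx start 1: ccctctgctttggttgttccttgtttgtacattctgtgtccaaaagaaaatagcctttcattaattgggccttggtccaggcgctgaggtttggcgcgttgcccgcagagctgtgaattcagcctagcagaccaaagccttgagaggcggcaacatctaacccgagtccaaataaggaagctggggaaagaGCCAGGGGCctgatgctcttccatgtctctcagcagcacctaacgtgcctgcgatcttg
Hopx start 2: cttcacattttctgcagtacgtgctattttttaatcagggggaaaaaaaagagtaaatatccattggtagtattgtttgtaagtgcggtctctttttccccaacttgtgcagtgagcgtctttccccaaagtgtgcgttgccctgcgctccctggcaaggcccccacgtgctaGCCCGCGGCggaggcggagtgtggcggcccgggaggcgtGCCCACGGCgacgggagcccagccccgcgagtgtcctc
Vim: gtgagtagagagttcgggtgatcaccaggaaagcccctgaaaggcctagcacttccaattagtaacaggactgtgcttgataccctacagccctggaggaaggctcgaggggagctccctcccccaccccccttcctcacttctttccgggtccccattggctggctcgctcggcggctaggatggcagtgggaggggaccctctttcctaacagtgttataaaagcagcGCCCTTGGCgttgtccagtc
Wnt8b: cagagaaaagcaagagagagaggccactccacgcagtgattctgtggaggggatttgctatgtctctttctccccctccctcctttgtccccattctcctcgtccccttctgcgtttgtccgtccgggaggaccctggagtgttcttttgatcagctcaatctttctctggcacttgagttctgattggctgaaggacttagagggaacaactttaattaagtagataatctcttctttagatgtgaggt

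The motif stood in 3 of these 4 windows. Its last base lay 51 bases before the first Hopx start, 69 and 30 bases before the second, and 12 bases before the start of Vim. Of 32851 promoter windows of the same length in the RefSeq table, 13.7% held it. The Wnt8b window did not hold these letters. A match describes the letters of the window and no binding was measured.

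Hopx was low before birth. It stood at 114 CPM at E16.5, 421 in P0a, 329 in P0b, 304 in P5a and 251 in P5b. Every later library was above E16.5, but the change over the 3 ages did not pass the test (log2 fold change per step 0.54 ± 0.23 SE, adjusted p = 0.184, edgeR's quasi-likelihood test). Here a step is one move in the order E16.5, P0, P5, and one sum of counts per age entered the fit. Tfap2c was the steadiest of the 4, at 117, 154, 155, 182 and 139.9 CPM in the same order of libraries (0.16 ± 0.16 per step, adjusted p = 0.668). Wnt8b stood at 111, 60.7, 41.8, 69.2 and 68.0 CPM (−0.42 ± 0.19, adjusted p = 0.235), and with every cell thinned to 2000 UMIs its sign turned (0.09).

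Vim fell. It stood at 1413 CPM at E16.5, 819 in P0a, 834 in P0b, 426 in P5a and 382 in P5b, so that libraries of one age lay close together and the ages did not overlap. The change was −0.97 ± 0.15 per step (adjusted p = 1.67e-04), and without library P0b the adjusted p was 0.0553. At E16.5 and P0 no other cluster with 20 or more cells exceeded RGL_young in Vim, whereas at P5 its rank was 4 and ependymal cells led with 988 CPM.

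Against other clusters Tfap2c was highest in RGL_young at all 3 ages, next to 104 CPM in nIPC-perin (perinatal intermediate progenitors) at E16.5, 133 CPM in nIPC (intermediate progenitors) at P0 and 116 CPM in nIPC-perin at P5. Hopx and Wnt8b ranked first at E16.5 and P5 and second at P0, when immature astrocytes (Immature-Astro) led Hopx with 433 CPM and ependymal cells led Wnt8b with 178 CPM. Immature-Astro, which shares much of the glial programme, held 1.55 CPM of Tfap2c at P0 and 6.92 CPM at P5 where RGL_young held 154 and 160.0 CPM. The reverse held for Aqp4, the water channel of astrocyte endfeet, at 256 and 1175 CPM in Immature-Astro against 51.6 and 159 CPM in RGL_young. The later RGL cluster kept Hopx at 347 to 944 CPM and Tfap2c at 65.0 to 273 CPM over the 4 ages at which it had 20 or more cells, while its Vim lay between 74.4 and 167 CPM.

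**Figure D2:**
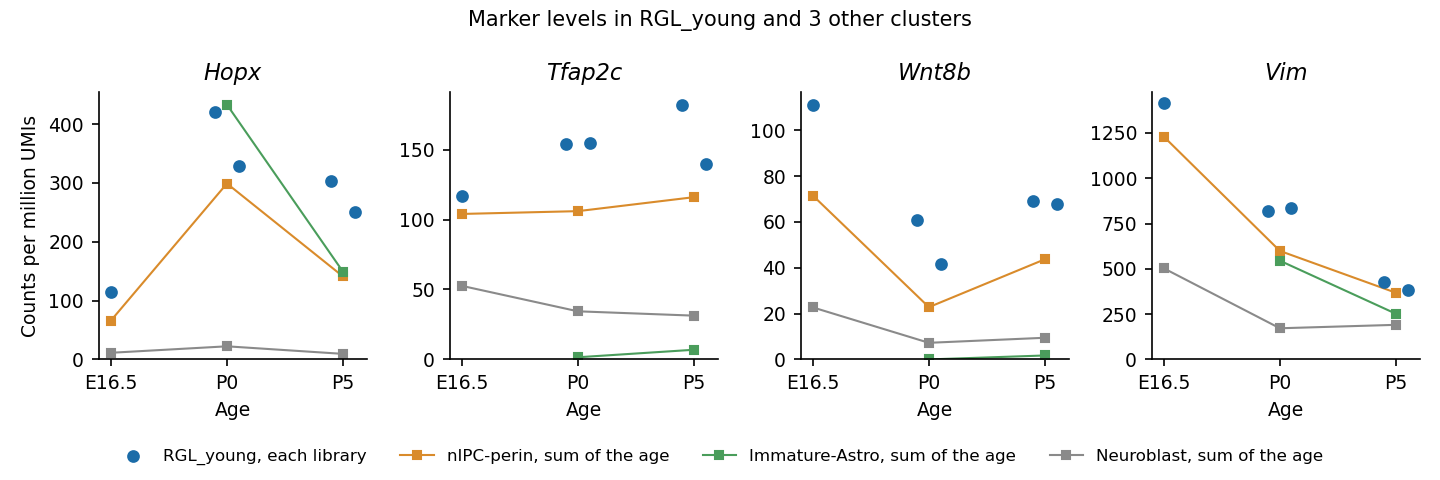
CPM (y axes, linear) of the 4 markers at E16.5, P0 and P5 (x axes). Blue points are RGL_young in each library and lines are the age sums of nIPC-perin, Immature-Astro (no point at E16.5) and Neuroblast; Tfap2c lies at 117 to 182 CPM in RGL_young and at 1.55 to 6.92 CPM in Immature-Astro, and Vim falls from 1413 to 382 CPM.

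Few single cells showed UMIs of all 4 markers at once. After thinning each cell to 2000 UMIs, 7 of 107 cells at E16.5, 42 of 325 at P0 and 63 of 241 at P5 had no UMI of any of the 4. Most of the rest had 1 or 2, and all 4 were seen together in 0, 4 and 3 cells. Tfap2c had a UMI in 17.8%, 24.6% and 24.9% of cells, against 0.550%, 0.0428% and 0.444% in immature pyramidal neurons (Immature-Pyr), which should lack it and whose median depth was 6112.5, 6412.5 and 10036.0 UMIs. Hopx had a UMI in 14%, 41.8% and 34.9% of RGL_young cells, against 1.1%, 1.97% and 3.41% of Immature-Pyr cells. For Vim the shares were 87.9%, 68.3% and 50.2%, against 22.8%, 12.5% and 3.11%.

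Genes that placed RGL_young above all other clusters at every perinatal age were few, and the margins were small. Of 2568 genes with 50 CPM or more in RGL_young at each age, 24 were highest there at all 3 ages. Dok5, an adaptor of receptor tyrosine kinases, had the widest margin, with at least 1.5 times the next cluster. It stood at 161 CPM at E16.5, 148 in P0a, 117 in P0b, 94.4 in P5a and 102 in P5b. Veph1, a membrane protein with a pleckstrin homology domain, followed at 1.33 times, at 52.8, 119, 100.1, 69.2 and 100.2 CPM. After them came H2-Ke6 and Scp2, which act in fatty acid and sterol metabolism, at 1.23 and 1.2 times. Tle1, a Groucho family co-repressor, stood at 1.15, and Rgs20, a regulator of G protein signalling, at 1.14. Tfap2c (1.12), the survival factor Bcl2 (1.08), the N-cadherin gene Cdh2 (1.06) and Thrsp (1.05) were on the same list. The closest cluster was nIPC-perin in 35 of the 72 pairs of gene and age. Immature-Astro was closest in 13 pairs at P0 or P5. It was not among the clusters compared at E16.5, so the counts rest on different numbers of pairs. By the same rule applied to nIPC-perin, with 50 CPM or more in that cluster at each age, 69 genes were highest there. The AP-2 motif stood in 5 of 18 promoter windows of these genes.

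The progenitor transcription factors described here were present at every age. Of 24 such genes tested, 3 rose over the 3 ages, Zbtb20 and Id4 among them, and Hes1 fell, where 5.82% of all genes tested were called in either direction, and the list's median was 0.11 per step against 0.01 for all genes. Sox2 and Sox9, the SoxB1 and SoxE factors of neural stem cells, stood at 151 to 321 CPM and 281 to 504 CPM over the 5 libraries. Pax6 and Emx2, which pattern the cortical progenitor zone, stood at 222 to 311 CPM and 135 to 193 CPM. Zbtb20, a zinc finger factor needed for hippocampal identity, went from 987 CPM at E16.5 to 1820.0 and 1846 CPM at P0 and 2172 and 2502 CPM at P5 (0.56 ± 0.14 per step, adjusted p = 0.0174). Hes1, a Notch effector, stood at 392 CPM at E16.5, 364 and 438 CPM at P0 and 145 and 193 CPM at P5, so that E16.5 and P0 overlapped and both P5 libraries lay below (−0.66 ± 0.19, adjusted p = 0.0372). None of these 4 calls (3 upwards and 1 downwards) was kept without library P0b, where the adjusted p of Hes1 was 0.187. From E16.5 to P0 alone the sign of Hes1 and Id4 turned (0.06 and −0.12 per step).

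Genes of the radial glia scaffold were abundant throughout. The 20 genes of that list summed to 18773 CPM at E16.5, the highest of 11 clusters, and to 27947 and 28526 CPM at P0 and P5, second to Immature-Astro at 51275 and 41584 CPM. Fabp7, the brain lipid-binding protein, made up a large part of it at 9068, 13202, 12142, 9633 and 10416 CPM, with no trend. Slc1a3, the glutamate transporter GLAST, went from 633 CPM at E16.5 to 1953 and 1855 CPM at P0 and 2629 and 3069 CPM at P5 (1.02 ± 0.16 per step, adjusted p = 1.08e-04, 0.0739 without P0b). Ptprz1, a receptor tyrosine phosphatase, and Pla2g7, a secreted phospholipase, rose as well (0.80 and 1.39 per step). With Slc1a3 these were the 3 calls among 20 genes tested, where 3.90% of all genes tested rose. Neither Ptprz1 nor Pla2g7 kept its call without P0b, and Pla2g7 was not called with DESeq2. Nes, the nestin filament, was low in these libraries at 57, 72.0, 62.1, 41.9 and 22.7 CPM.

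As labelled, RGL_young cells carried transcripts of mitosis far less often than the intermediate progenitors did. The clusters were built from these same cells, so the labelling itself can set this contrast. It is a description and does not measure how often radial glia divide. With cells thinned to 2000 UMIs, 2 or more UMIs of 18 mitosis genes were found in 10.3% of cells at E16.5 (11 of 107, 5.24 to 17.7%), 4.00% at P0 (13 of 325, 2.15 to 6.74%) and 3.73% at P5 (9 of 241, 1.72 to 6.97%). The unthinned shares were 34.6%, 8.31% and 8.71%. The same thinned measure gave 98 to 99.2% in nIPC and 92.9 to 95.6% in nIPC-perin. Among clusters of young neurons it gave 3.88%, 3.29% and 9.39% in Neuroblast and 0.344%, 0.299% and 0.296% in Immature-Pyr. In Cajal-Retzius cells, which are neurons that no longer divide, it gave 3.51% (0.964 to 8.74%), 5.15% (2.09 to 10.3%) and 9.27% (5.16 to 15.1%). The RGL_young shares at P0 and P5 were below those of Cajal-Retzius cells, and the intervals overlapped at each age. At each age the RGL_young interval lay above the Immature-Pyr share. Whether the RGL_young shares are background was not tested. The S-phase list, of replication genes, gave a larger share: 2 or more UMIs of its 14 genes were found in 40.2% (30.8 to 50.1%), 22.5% (18 to 27.4%) and 25.3% (19.9 to 31.3%) of RGL_young cells, with unthinned shares of 77.6%, 40.3% and 37.3%. Cajal-Retzius cells gave 6.14%, 4.41% and 1.99%, Neuroblast 16%, 13.6% and 16.2%, and nIPC-perin 57.9%, 64.7% and 70.5%. Of the 14 S-phase genes, Rrm2 and Gins2 fell, Rrm2 not from P0 to P5 alone (0.08 per step), and 12 did not pass the test, while all 14 estimates were negative (median −0.44 per step). None of the 5 mitosis genes that could be tested passed. In the G1 list of 10 genes, Cdk6 rose (0.80) and the cell cycle inhibitor Cdkn1c fell from 35.7 CPM at E16.5 to 6.29 and 1.89 CPM at P5 (−1.45). None of these S-phase and G1 calls was kept without library P0b, without P5b or with DESeq2, which gave Cdkn1c no adjusted p. Leaving out any single P0 or P5 library removed the calls of Rrm2 and Gins2. The share called over all genes tested was 5.82%.

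Over E16.5, P0 and P5, 496 of 8528 genes tested in RGL_young changed at an adjusted p under 0.05 (5.82%), 333 upwards (3.90%) and 163 downwards (1.91%). The fit rests on 3 sums and 1 residual degree of freedom, so the spread was borrowed from all genes. Without library P0b the count was 25, with DESeq2 60, and without P5b 144. Of the 20 genes with the largest changes, 10 in each direction, 9 kept their call in all 12 alternatives, among them Slc25a18, Cmtm5, Aqp4, S100a6, Rspo3, Rspo1, Rspo2 and Lrp1b. E16.5 is a single library, so what that library and that age contribute cannot be told apart.

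The largest rises were in transport and astroglial genes. Slc25a18, a mitochondrial glutamate carrier, stood at 4.28 CPM at E16.5 (3 UMIs), 72.0 in P0a, 86.1 in P0b, 270.5 in P5a and 349.6 in P5b. The ages did not overlap, the change was 2.46 ± 0.23 per step (adjusted p = 9.22e-08), and P5 was 72.9 times E16.5 with a counting interval of 24.7 to 356. At P5 it was higher in RGL_young than in any other cluster. Sparcl1, a secreted glycoprotein of astrocytes that promotes synapses, went from 8.56 CPM to 254 and 296 CPM at P0 and 633 and 673 CPM at P5 (2.45 ± 0.31). Aqp4 went from 1.43 CPM (1 UMI) to 43.6 and 57 CPM and then 205 and 117 CPM (2.21 ± 0.27). Slc1a2, the astrocytic glutamate transporter GLT-1, and Slc6a11, a GABA transporter, rose by 1.85 and 1.88 per step. The calcium-binding genes S100a6 and S100a16 rose by 1.92 and 1.78, and Cmtm5 by 2.22. Gfap, the filament protein of astrocytes and adult stem cells, stood at 30.0, 404, 533, 602 and 525 CPM, so that the step came between E16.5 and P0 and the P0 and P5 libraries overlapped (1.78 ± 0.34, adjusted p = 0.00143). Without P0b its adjusted p was 0.146, without P5a 0.0629. For 9 of the 10 genes all 7 other clusters compared were also higher at P5 than at E16.5, and for Slc1a2 this was so in 6 of 7. The sizes differed, and some rises were near the floor. Slc25a18 went from 0.0978 to 2.99 CPM in Immature-Pyr and from 0 to 2.20 CPM in Cajal-Retzius cells, but from 2.38 to 130.0 CPM in nIPC-perin. No astrocyte cluster was among the 7.

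Of the 10 genes named as falling, 3 were R-spondins. They are secreted ligands that strengthen Wnt signalling at the cell surface. Rspo3 stood at 419 CPM at E16.5, 37.9 in P0a, 83.6 in P0b, 12.6 in P5a and 11.3 in P5b. It fell by 2.66 ± 0.19 per step on the log2 scale (adjusted p = 8.61e-10), and E16.5 was 35.2 times P5 (counting interval 19.8 to 68.8). Rspo1 stood at 147, 28.4, 35.5, 6.29 and 0 CPM and Rspo2 at 147, 36.0, 20.3, 6.29 and 3.78 CPM, with changes of −2.56 ± 0.24 and −2.52 ± 0.23. At E16.5 each of the 3 was higher in RGL_young than in any other cluster, although Cajal-Retzius cells held 374 CPM of Rspo3. At P0 ependymal cells led all 3, and in the later RGL cluster all 3 were at 0. At P23 a count of 0 in that cluster allows up to 31.8 CPM, which is above the P5 levels of RGL_young. The promoter window of Rspo1 (chr4:124986180-124986429, plus strand) is shown, since the RefSeq windows used here held no entry for Rspo2 or Rspo3. Beside it is that of Gfap (chr11:102897201-102897450, minus strand) among the genes that rose.

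Rspo1: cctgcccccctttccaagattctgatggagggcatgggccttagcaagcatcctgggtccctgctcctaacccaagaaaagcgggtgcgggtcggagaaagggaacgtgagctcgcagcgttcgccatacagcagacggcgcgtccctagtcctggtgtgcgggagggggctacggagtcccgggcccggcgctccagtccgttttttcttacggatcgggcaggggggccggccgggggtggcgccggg
Gfap: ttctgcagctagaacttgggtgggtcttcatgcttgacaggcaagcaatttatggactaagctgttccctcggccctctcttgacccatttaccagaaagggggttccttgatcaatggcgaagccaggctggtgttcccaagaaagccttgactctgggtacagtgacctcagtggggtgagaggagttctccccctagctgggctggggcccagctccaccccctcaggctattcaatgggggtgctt

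Neither window held GCCNNNGGC, nor the TCF/LEF motif CTTTGAT on either strand, which occurs in 3.21% of all windows. The AP-2 motif stood in 1 of 9 windows of the genes that rose and in 1 of 8 windows of those that fell.

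Xist had the largest fall of all (−3.43 ± 0.51 per step, adjusted p = 8.00e-05), as described above with the sex of the pools, and it was lower at P5 than at E16.5 in all 7 other clusters. Meis2, a TALE homeodomain factor, stood at 305 CPM at E16.5, 149.8 and 141 CPM at P0 and 16.8 and 15.1 CPM at P5 (−1.98 ± 0.23), with no overlap between ages. It was at 0 in the later RGL cluster, which allows up to 31.8 CPM at P23. Igfbp2, an insulin-like growth factor binding protein, stood at 281, 186, 195, 29.4 and 22.7 CPM (−1.63 ± 0.24), so that most of the fall came after P0. The low density lipoprotein receptor gene Lrp1b fell by 1.6 per step and the centromere gene Cenpw by 1.73. Pid1 and the non-coding RNA Lockd fell by 1.17 and 1.15.

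**Figure D3:**
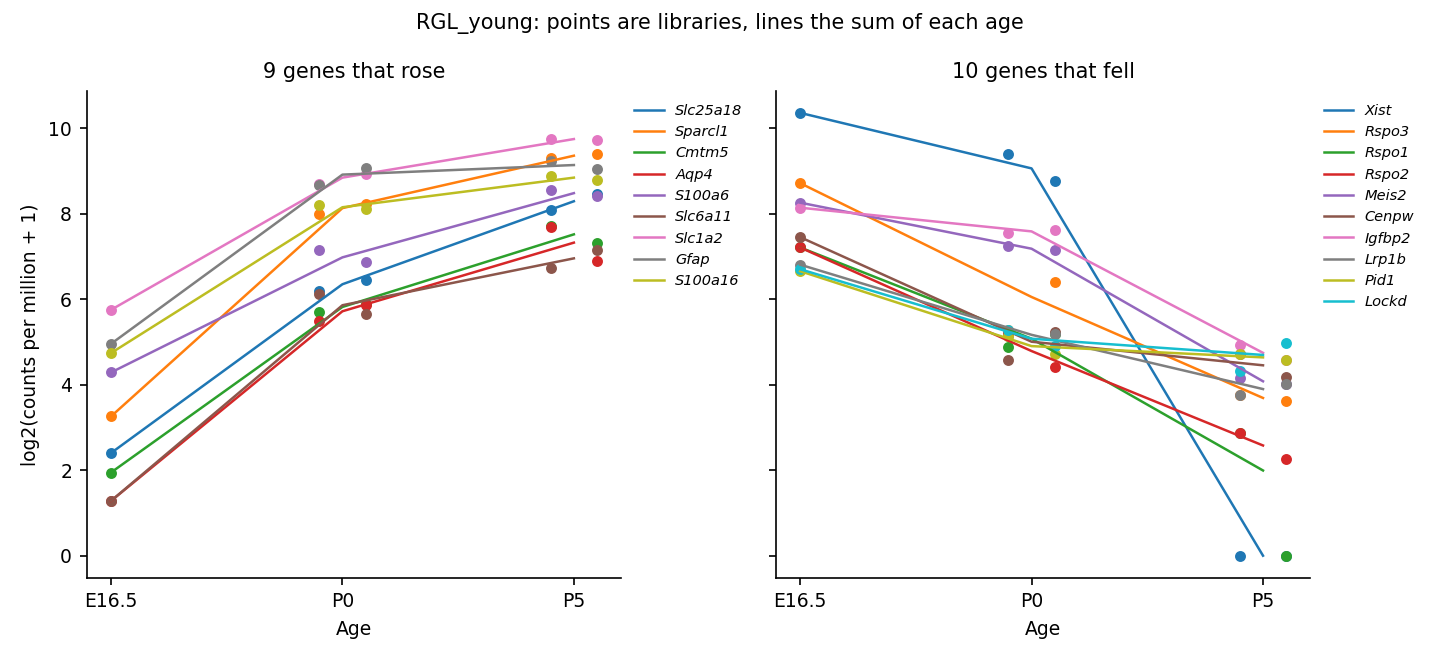
log2(CPM + 1) in RGL_young (y axis) at E16.5, P0 and P5 (x axis) for 9 of the 10 genes with the largest rises (left) and the 10 with the largest falls (right). Points are libraries and lines join the sums of each age; Rspo3 falls from 419 CPM to 12.6 and 11.3 CPM, and Slc25a18 rises from 4.28 to 270.5 and 349.6 CPM.

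Read over the whole list, genes of astrocyte maturation were the group with the most calls. Of 21 tested, 14 rose and none fell, where 3.90% of all genes tested rose. The list's median was 1.06 per step against 0.01 for all genes. Cst3, a protease inhibitor, went from 749 CPM to 3035 and 3367 CPM and then 6112 and 6384 CPM (1.47 ± 0.15, adjusted p = 4.86e-07, 0.0318 without P0b). Apoe, the lipid carrier, went from 387 CPM at E16.5 to between 2415 and 2948 CPM in the later libraries, with P0 and P5 overlapping (1.33 ± 0.26). Aldoc, Glul and Clu, which also belong to the list, had estimates of 0.34, 0.48 and 0.16 that did not pass. Without library P0b, Aqp4 and Cst3 alone were called in this list, and with DESeq2 5 genes. The summed level of the list in RGL_young stayed below that of Immature-Astro, at 10698 against 20636 CPM at P0 and 15084 against 44404 CPM at P5.

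The neurogenic line moved in both directions. Of 14 genes tested, Eomes, Neurog2 and Igfbpl1 fell, and Neurod1, Prox1, Sox4, Elavl3 and Stmn2 rose. The share called over all genes tested was 5.82%. From P0 to P5 alone the sign of Eomes and Igfbpl1 turned (0.94 and 0.31 per step). Neurog2, the proneural factor that starts glutamatergic neurogenesis, stood at 271 CPM at E16.5, 56.9 in P0a, 124 in P0b, 105 in P5a and 77.5 in P5b (−0.87 ± 0.17, adjusted p = 0.00220). The fall lay between E16.5 and P0, and the later libraries overlapped. Without P0b its adjusted p was 0.215, and without P5b 0.0679. Neurod1, a factor of granule cell precursors, stood at 9.98, 13.3, 8.87, 56.6 and 86.9 CPM (1.76 ± 0.30, adjusted p = 5.04e-04). None of the calls in the neurogenic list was kept without library P0b or with DESeq2, and Neurod1 had no adjusted p in either fit. Prox1, the granule cell identity factor, stood at 39.9, 66.4, 82.3, 143 and 127 CPM (0.81 ± 0.18). The neuronal genes Snap25 and Meg3 also rose, and Meg3 stood at 113 CPM in P5a but 314 CPM in P5b. Olig1 and Olig2, factors of the oligodendrocyte line, rose by 1.29 and 1.22 per step. Neither call was kept without P0b or without P5a. Olig1 stood at 32.8, 136, 200.2, 361 and 166 CPM, while Pdgfra, which defines oligodendrocyte precursors, was at 0 in all libraries but P0a at 1.9 CPM.

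In each of 5 signalling pathways 1 or 2 genes were called, where the share over all genes tested was 5.82%. Ptch1 and Gas1, the receptor of Sonic hedgehog and its co-receptor, rose among 7 hedgehog genes tested, while the ligand gene Shh had no UMI. Gas1 stood at 143, 434, 479, 585 and 709 CPM (1.01 ± 0.19, adjusted p = 0.00107, 0.0870 without P0b). The summed hedgehog list was higher in RGL_young than in any other cluster at P0 and P5, at 726 and 941 CPM against 663 and 697 CPM in nIPC-perin. Of 16 Wnt genes the receptor Fzd9 and the feedback gene Axin2 fell (−0.99 and −0.88 per step). Axin2 stood at 61.3, 45.5, 39.3, 21.0 and 17.0 CPM. Of 12 Notch genes Hes1 fell, and Hes5, another effector, stood at 615, 779, 787, 533 and 449.8 CPM with no call. Id2 and Id4, targets of bone morphogenetic proteins, rose among 11 genes of that pathway, and Spry2, a feedback inhibitor, rose among 9 FGF genes. None of the calls in these 5 pathways was kept without library P0b, and with DESeq2 Gas1 alone was called.

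In metabolism, 3 of 15 glycolysis genes fell, Eno1, Pkm and Ldha, with a list median of −0.31 per step. Ldha stood at 667 CPM at E16.5 and between 270.3 and 367 CPM later. Of 21 lipid synthesis genes, Thrsp and the desaturase Scd2 rose. Over all genes tested 3.90% rose and 1.91% fell. Neither list had a call without P0b, and DESeq2 called Eno1 and Thrsp alone. Thrsp, a regulator of fatty acid synthesis also called Spot14, stood at 144, 451, 399, 679 and 716 CPM (1.06 ± 0.18, adjusted p = 3.21e-04, 0.0808 without P0b). It led all clusters at each perinatal age, next to 137, 316 and 423 CPM in nIPC-perin, and the later RGL cluster held 1122 to 1513 CPM. The matrix genes Ncan, Cspg5, Sparcl1 and Ncam1 rose among 16. Of 13 early response genes tested, Fos, Fosb, Junb and Dusp1 rose. No call in the matrix or early response list was kept without P0b or with DESeq2. The early response calls were also lost without P5a and without P5b. Between P0 and P5 alone the sign turned for Ncan, Fos, Junb and Dusp1 (−0.44, −0.59, −0.11 and −0.06 per step).

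The same age course was then set against the other clusters. In a fit over 8 neural clusters and 3 ages, with age as a block, no gene of 11400 had a slope in RGL_young that differed from the common course at an adjusted p under 0.05 (0% called, edgeR). At an unadjusted p under 0.05 there were 773 genes (6.78%). DESeq2 called 2 genes. The median over the astrocyte list was 0.11 per step in this comparison against 0.02 for all genes, and none of its 23 genes was called. For Slc25a18 the difference was 0.20 ± 0.53 per step and for Gfap −0.17 ± 0.46. For Rspo3, Rspo1 and Rspo2 the differences were −1.17 ± 0.56, −1.70 ± 0.82 and −1.89 ± 0.77 (adjusted p = 0.734, 0.734 and 0.694), and against nIPC, nIPC-perin and Neuroblast alone they were 0.25, 0.37 and 0.23. In nIPC-perin Rspo3 went from 153 to 18 to 2.13 CPM over the ages, and Slc25a18 from 2.38 to 30.0 to 130.0 CPM. Lrp1b, at −1.85 ± 0.35, had an adjusted p of 0.283. The count was 12 without nIPC-perin, among them Cst3 and Malat1 upwards and Lrp1b downwards.

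**Figure D4:**
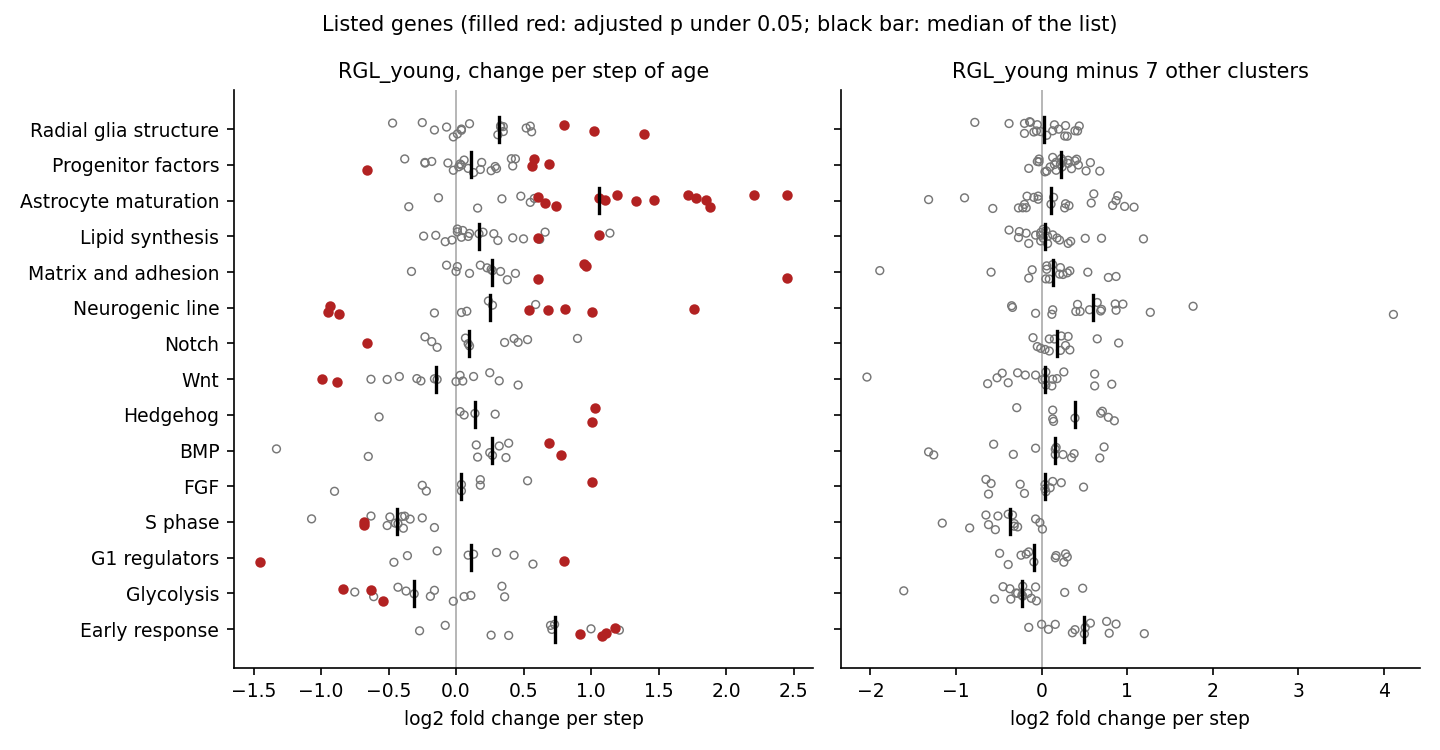
log2 fold change per step (x axes) of listed genes, by gene list (rows): in RGL_young over E16.5, P0 and P5 (left), and as the difference from the course of 7 other clusters (right). Filled points passed an adjusted p of 0.05 and black bars are medians; 14 of 21 astrocyte maturation genes are filled on the left and none on the right.

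RGL_young cells of one age were not alike. The variance of UMIs over cells, divided by the mean, was close to that of counting alone for most of 2459 genes ranked after thinning (median 1.03, 1.04 and 1.04 at the 3 ages), and 28, 52 and 35 genes had a ratio above 2. The largest ratios that held at each age belonged to Malat1 (at least 19), Fabp7 (15.6), Actb (4.11), Id3 (3.25), Ptn (2.70), Dbi, Mt3, Tmsb4x, Fos and H2afz. Fabp7 ranged up to 88, 128 and 104 UMIs in a cell around means of 18.9, 25.0 and 21.6.

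Rspo3 was held by few cells. It had a UMI in 19 of 107 thinned cells at E16.5 (17.8%), against 7.08% of Immature-Pyr cells at that age, and 5 cells held 50% of its UMIs. The share was 5.54% at P0 and 2.49% at P5. The split of cells that follows, like those by Gfap and Neurog2, was chosen after values were seen and is given without a test. The 19 cells with Rspo3 had 526 CPM of Rspo1 (Poisson interval 321 to 813) against 22.7 CPM in the other 88 (6.19 to 58.2). Rspo2 stood at 395 against 5.68 CPM. All 9 UMIs of Wnt3a, a ligand known from the cortical hem, lay in these cells. Wnt8b stood at 316 against 17.0 CPM and Id3 at 1553 against 483 CPM. Tfap2c had 0 UMIs in the 19 cells (0 to 97.1 CPM) and stood at 131 CPM (82.8 to 196) in the rest, with overlapping intervals. Fabp7, at 10132 and 9295 CPM, Slc1a3, at 605 and 562 CPM, and Hes5, at 553 and 619 CPM, had overlapping intervals too. So did Hopx, at 184 and 85.2 CPM. The Cajal-Retzius markers Trp73 and Ndnf were at 0 in both sets, and Reln had 4 UMIs in the 19 cells and 0 in the rest. As deposited the 19 cells had a median of 6784.0 UMIs against 5169.0. At P0 the 18 cells with Rspo3 had Wnt8b at 222 against 45.6 CPM, Id3 at 2000 against 814 CPM and Hopx at 1056 against 350.2 CPM, while Tfap2c stood at 167 against 153 CPM. Reln stood at 139 CPM (45.1 to 324) against 3.26 CPM (0.394 to 11.8) at P0. At P5, where 6 cells had Rspo3, Reln stood at 500.0 against 2.13 CPM, and the UMIs of Reln, Ndnf and Trp73 in these cells each lay in 1 cell. The part of Cajal-Retzius RNA in these splits was not tested.

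Cells with Neurog2 were low in Fabp7. At P0, the 45 cells with a UMI of Neurog2 held 4167 CPM of Fabp7 (3756 to 4610.5) against 13811 CPM (13505 to 14122) in the other 280, and 978 against 346 CPM of the neuronal factor Sox4. Hes1 stood at 111 against 450.0 CPM. A similar gap in Fabp7 was seen at E16.5 (4125 against 11329 CPM) and P5 (5417 against 11376 CPM). The median depth of the 2 sets at P0 was 3666.0 and 3754.5 UMIs. Gfap had a UMI in 5.61%, 38.5% and 45.6% of cells, against 0%, 0.470% and 2.37% of Immature-Pyr cells. At P0 the 125 cells with Gfap held 120 CPM of Aqp4 (81.0 to 171) against 20 CPM (8.63 to 39.4), and 3944 against 1895 CPM of Apoe. At P5 the gap in Apoe was 3586 against 2115 CPM, while Aqp4, at 155 CPM (107 to 216) and 107 CPM (71.0 to 154), had overlapping intervals. Sparcl1, at 700.0 and 702 CPM, and Slc1a2, at 818 and 855 CPM, lay close together at P5. Tfap2c, at 156 and 152 CPM, Hopx, at 428 and 365 CPM, and Vim, at 808 and 770.0 CPM, had overlapping intervals in cells with and without Gfap at P0.

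**Figure D5:**
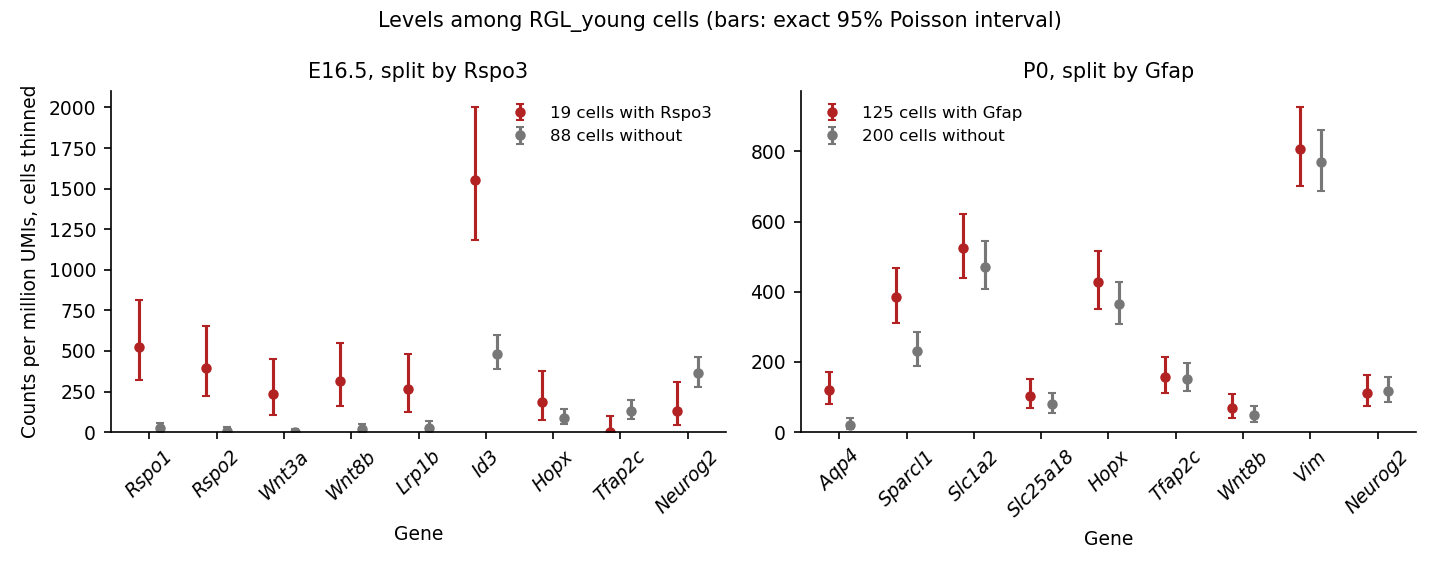
CPM (y axes) of 9 genes in RGL_young cells thinned to 2000 UMIs, with exact 95% Poisson intervals: cells with and without a UMI of Rspo3 at E16.5 (left) and of Gfap at P0 (right). Wnt8b stands at 316 against 17.0 CPM and Tfap2c at 0 against 131 CPM, with overlapping intervals, on the left, and Aqp4 at 120 against 20 CPM on the right, a gap whose intervals overlapped at P5 (155 and 107 CPM, not drawn).

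The 13 cells labelled RGL_young after P5 held 39314 UMIs together, which limits each level to a wide interval. Mitochondrial genes took 11.4% of their UMIs at P18 and 9.08% at P23, against 4.33 to 4.75% at the perinatal ages, and the part of this in the levels was not tested. Their Hopx differed between ages, at 1375 CPM (732 to 2352) in the 5 cells of P18 and 296 CPM (128 to 583) in the 7 of P23. Over all 13 cells Tfap2c stood at 127 CPM (41.3 to 297), Wnt8b at 76.3 CPM (15.7 to 223) and Vim at 153 CPM (56.0 to 332). Tfap2c and Wnt8b had no UMI in the 5 cells of P18, which allows up to 317 CPM. That is above their levels in RGL_young at P5 (160.0 and 68.6 CPM). Other radial glia genes went both ways against RGL_young at P5. In the 13 cells Sox2 stood at 25.4 CPM (0.644 to 142) against 294 CPM, Sox9 at 178 against 460.2 CPM and Slc1a3 at 1729.7 against 2861 CPM. Pax6 stood at 102 against 246 CPM, but Hes5 at 789 against 489 CPM. The oligodendrocyte gene Mbp and the neuronal gene Snap25 stood at 229 and 178 CPM against 16.9 and 37.8 CPM. RGL at P23 had 339 and 201 CPM of them. Thrsp stood at 1501 CPM (1142 to 1936) and Fabp7 at 2391 CPM (1932 to 2926) in the 13 cells, where RGL_young at P5 had 699 and 10044 CPM and RGL at P23 had 1378 and 4241 CPM. Rspo1, Rspo2, Rspo3 and Aqp4 were not detected, which allows up to 76.3 CPM. Neurod1 stood at 331 CPM, and 11 of its 13 UMIs lay in 1 cell of P23.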

How the data were processed

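The authors deposited UMI counts per gene and cell for 24185 cells, with a cluster, age, strain and sex for each cell. Per the submitters' processing notes, Cell Ranger and build mm10 were used, and no version is given in the sources used here. Doublet treatment is not given in the sources used here. No cell was removed here. The members and gene lists were chosen with earlier results of these data known. Counts were summed per cluster and age, and they were scaled to CPM (per 1000000 UMIs of all genes). The age course was fitted on 3 RGL_young sums against the order 0, 1 and 2, and the comparison with other clusters on 24 sums of 8 clusters with 20 or more cells at each age (cluster, age and RGL_young by order). Both used edgeR 4.0.16 (R 4.3.3; TMM, filterByExpr, quasi-likelihood, Benjamini-Hochberg) and were tested on simulated data. DESeq2 1.42.0 was an alternative. Each age is a pool, so p-values do not measure spread between animals. In the age course they rest on how far the 3 sums depart from a straight line over the age order, and on spread borrowed from other genes. Nothing says libraries of one age came from separate animals. Genes were named by rule: the 20 leading genes of widest margin, the 10 largest changes in each direction with a mean of 50 CPM or more that moved at each step, the 10 most variable genes, and the members of 26 lists. Cells were thinned to 2000 UMIs (seed 7) for shares, intervals are 95% (Clopper-Pearson or Poisson), and a count of 0 allows 3 counts. Alternatives appear in the closing section. Promoter windows are from RefSeq (GRCm38.p6); 3 of 4 markers matched. Results for some genes are not reported here.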

Additional observations from a re-analysis of the deposited data

How the results depend on the processing

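In the age course, the count of 496 genes was 60 with DESeq2, 233 with age in days and 262 with cells thinned to 2000 UMIs, and 25 to 397 with a P0 or P5 library left out (25 without P0b, 217 without P5a, 144 without P5b). Under the other alternatives it stayed within 1.5 times. The cause was not tested, although thinning and leaving out libraries also lowered the number of genes tested. No paired analysis was possible in the age course because age is itself the effect. Against other clusters the count of 0 was 95 with no filter on low counts, 2 with DESeq2 (H2afz and Lrp1b), 12 without nIPC-perin, and 0 to 1 with an age left out. It was 1 (Lrp1b) without cells sharing a barcode, an alternative chosen after seeing the data. With no replicate block (age as the block in the comparison reported) it was 0. The clusters compared were all neural, so a fit on neural clusters was not run separately.

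Signs that turned were these. Wnt8b was 0.09 per step in thinned cells. Against progenitors and neuroblasts alone, Rspo1, Rspo2 and Rspo3 were 0.37, 0.23 and 0.25. Leaving out an age in turn leaves no test and gave −0.12 to 1.49 for Id4, −1.26 to 0.06 for Hes1, −1.26 to 0.08 for Rrm2, −2.47 to 0.94 for Eomes, −2.06 to 0.31 for Igfbpl1 and −0.44 to 2.58 for Ncan. It gave −0.59 to 2.94 for Fos, −0.11 to 2.81 for Junb, −0.06 to 2.24 for Dusp1, −2.88 to 0.04 for Dcn and −3.74 to 6.89 for Hba-a1, which was −1.06 without P5a.

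The share of cells with mitosis UMIs was 28%, 14.2% and 17.8% at E16.5, P0 and P5 with 1 or more UMIs, and 3.74%, 1.23% and 1.66% with 3 or more. At 2000 UMIs per cell a gene without a UMI is not shown to be absent from that cell.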
